A study of Homo sapiens with 10 samples.

Results

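The genes examined here are 9 regulators of epithelial identity, GRHL1, GRHL2, GRHL3, EHF, ELF3, ESRP1, ESRP2, OVOL1 and OVOL2, out of the 58050 genes of a transcriptome table of HCT116 cells. They were chosen by name as epithelial transcription and splicing factors, with the difference between the groups already known for some of them, so all differences of these 9 genes are given as descriptions without a test. HCT116 is a human colorectal carcinoma cell line. HCT116-WT cells were compared with HCT116-CD276KO cells, in which CD276 (B7-H3), a surface protein of the B7 family, had been targeted with a Cas9 ribonucleoprotein and a guide RNA. Each group comprised 5 biological replicates grown in McCoy's 5A medium with serum, all from the same parental line. The labels name a scrambled guide as the control of the editing, without saying whether the HCT116-WT cultures had received it. The HCT116-CD276KO cells were 1 single cell clone, so the replicates show the spread between cultures only, and what separates the groups separates that clone from HCT116-WT cells.

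Grainyhead-like factors (GRHL) bind and open enhancers of epithelial genes, among them those of E-cadherin and of tight junction proteins. EHF and ELF3 are ETS transcription factors of epithelia, ESRP1 and ESRP2 are RNA-binding proteins that favour the epithelial exons of genes such as FGFR2 and CD44, and OVOL1 and OVOL2 are zinc finger repressors that hold down mesenchymal factors such as ZEB1. In the intestine these genes are known from the epithelial lining, and loss of several of them accompanies epithelial-mesenchymal transition in cell culture.

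The values are TPM, transcript abundances corrected for transcript length and brought to a common total per library, so that levels of different genes can be set side by side. The read depth of each library is unknown from TPM. The 13581 genes that averaged 1 TPM or more were tested with limma on log2(TPM + 1). CD276 itself stood between 38.08 and 53.61 TPM in HCT116-WT cells and between 4.4 and 7.42 TPM in HCT116-CD276KO cells, which left 12.1% of the HCT116-WT mean. Of the tested genes 4.87% had an adjusted p-value under 0.05, 4.09% lower and 0.781% higher in HCT116-CD276KO cells, and the median log2 fold change of all of them was -0.09. Epithelial markers defined the cells in both groups, with KRT8 at 2082 ± 177 and 1553 ± 110 TPM (SD, n = 5). The summed TPM of 10 epithelial markers ranged from 4370 to 5185 in HCT116-WT and from 3455 to 3925 in HCT116-CD276KO libraries, and 6 of the 7 tested markers fell (EPCAM, CDH1, KRT8, KRT18, KRT19 and CLDN7), with a median log2 fold change of -0.39 over the 7. CDX2, the other one, stood at 8.91 and 9.27 TPM. Their part in the values of the 9 regulators was not tested, and in bulk RNA fewer cells of a type and less RNA per cell cannot be told apart. After median-of-ratios scaling KRT8 (adjusted p = 0.0643, limma), KRT18 (0.0523), KRT19 (0.252) and EPCAM (0.119) did not pass, and KRT19 passed in 1 of the 10 fits with a library left out, that without HCT116-CD276KO replicate 2. VIL1 and LGALS4, markers of differentiated gut epithelium, stayed under 0.5 TPM in every library. Of 10 fibroblast and endothelial markers 8 stayed under 0.5 TPM in every library, and none of this list passed the limma test. Of 10 leukocyte markers 9 were likewise under 0.5 TPM, PTPRC among them at or under 0.13 TPM. The only tested genes of these lists, COL1A1 and CD68, had unadjusted p-values under 0.05, as had 2977 of all 13581 tested genes.

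In HCT116-WT cells ESRP1 stood highest of the 9 genes with 111 ± 18.5 TPM (SD, n = 5), at the percentile 89.1 of all tested genes. EHF and ELF3 followed at the percentiles 81.9 and 81.2, and their ranges overlapped each other. ESRP2 (percentile 55.5), GRHL2 (36.4), GRHL1 (25.2) and OVOL1 (25.1) came next, of which only the neighbours GRHL1 and OVOL1 overlapped. GRHL3 and OVOL2 were the lowest, overlapped each other and had means under 1 TPM over all 10 libraries, so that 7 of the 9 genes were among those tested. In HCT116-CD276KO cells the order changed at 2 places: EHF stood below ELF3 in all 5 libraries, and GRHL3 stood below OVOL2 in 4 of 5. The neighbours ESRP1 and ELF3, EHF and ESRP2, GRHL2, GRHL1 and OVOL1, and OVOL2 and GRHL3 overlapped in range there. Of the 9 genes 8 had a lower mean in HCT116-CD276KO cells and OVOL2 a higher one. In 5 of them (EHF, ELF3, GRHL2, GRHL3 and OVOL1) every HCT116-CD276KO library lay below every HCT116-WT library. All but GRHL3 were among the genes tested, so that this held for 4 of 7, beside 6.19% of all genes tested. As the genes were selected on this comparison, nothing is read from that number.

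**Figure D1:**
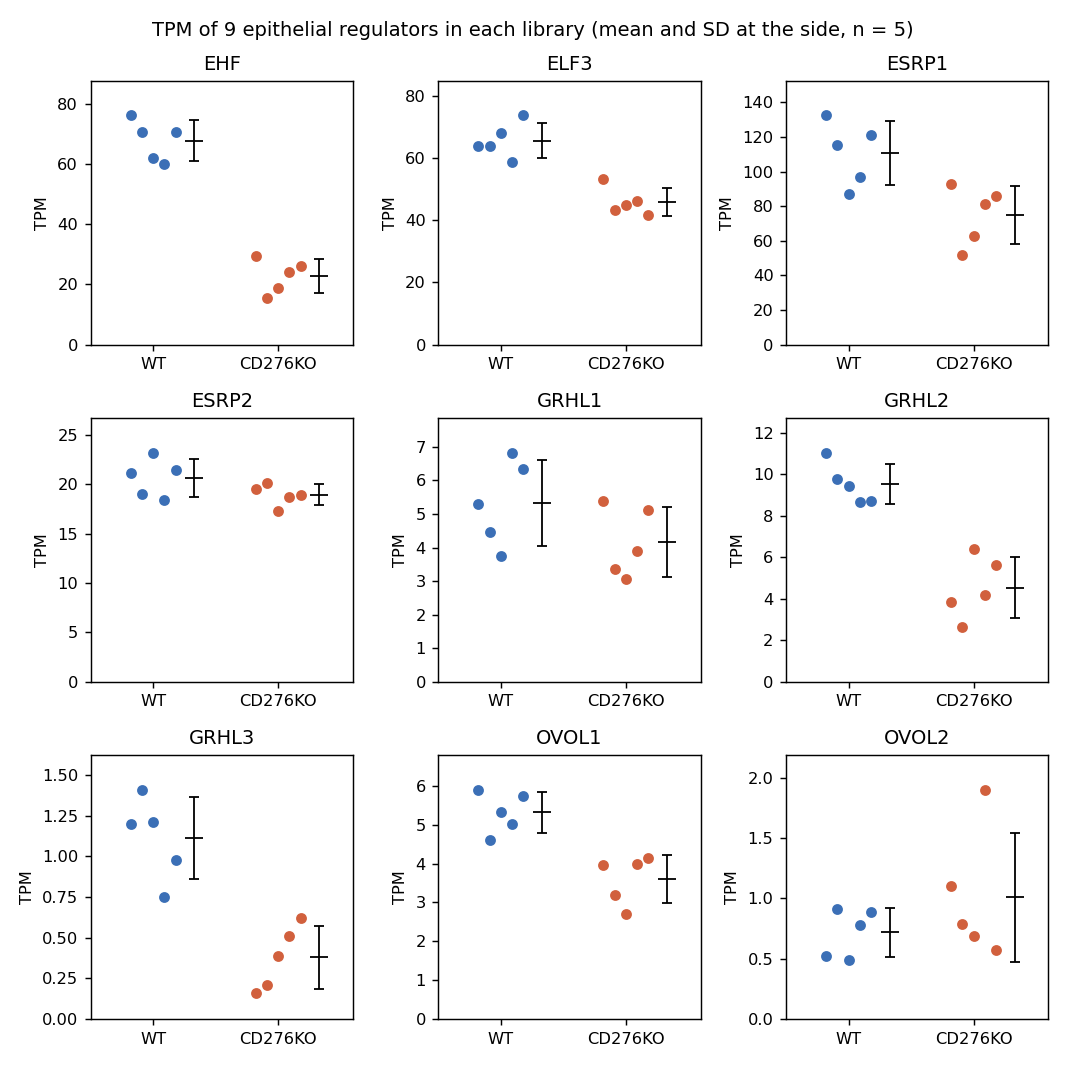
Each panel plots the TPM of 1 regulator (vertical axis, from 0) in the 5 HCT116-WT libraries (blue) and the 5 HCT116-CD276KO libraries (red), replicates 1 to 5 from left to right, with the mean and SD beside them. EHF separates most widely, from 59.81 to 76.1 TPM in HCT116-WT against 15.43 to 29.57 TPM in HCT116-CD276KO, while the points of ESRP1, ESRP2, GRHL1 and OVOL2 overlap.

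The epithelial ETS factor EHF (ENSG00000135373) lies on chromosome 11 of GRCh38 from 34621093 to 34663288 on the plus strand. EHF stood at 76.1, 70.47, 61.98, 59.81 and 70.46 TPM in replicates 1 to 5 of HCT116-WT and at 29.57, 15.43, 18.84, 24.04 and 26.14 TPM in those of HCT116-CD276KO. The highest HCT116-CD276KO library thus lay far below the lowest HCT116-WT library. With means of 67.8 ± 6.72 and 22.8 ± 5.67 TPM (SD, n = 5), 33.7% of the HCT116-WT level remained (log2 fold change -1.56). Its relative ELF3 (ENSG00000163435), which acts in gut epithelial differentiation, lies on chromosome 1 from 202007945 to 202017183 on the plus strand. ELF3 stood at 63.87, 63.82, 68.06, 58.79 and 73.72 TPM in HCT116-WT and at 53.19, 43.4, 44.96, 46.24 and 41.69 TPM in HCT116-CD276KO. The groups did not overlap here either, with replicate 1 of HCT116-CD276KO closest to the HCT116-WT libraries. The means of 65.7 ± 5.58 and 45.9 ± 4.42 TPM (SD, n = 5) left 69.9% of the HCT116-WT level (log2 fold change -0.51). EHF made up 50.8 ± 2.70% of the summed TPM of both genes in HCT116-WT and 32.8 ± 4.93% in HCT116-CD276KO (SD, n = 5). Its share ranged from 47.7% to 54.4% and from 26.2% to 38.5%, so the pair was close to equal in HCT116-WT cells and ELF3 made up the larger share in each HCT116-CD276KO library. The antisense transcript ELF3-AS1 overlaps ELF3 and was low, at 1.09 and 0.678 TPM.

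The promoter windows of these genes are shown because several of the regulators were lower together and because the families are known to bind DNA at short motifs. They were taken from RefSeq on GRCh38.p14 and cover 250 bases before to 50 after a transcription start, and those of 4 of the 9 genes (GRHL1, GRHL3, EHF and ELF3) were used here. The motifs searched on both strands were AACCNGTT for Grainyhead factors, CCGGAAGT for ETS factors, CCGTTA for OVO factors and the E-box CAGGTG, which ZEB and SNAI repressors bind. Among all 35116 windows of the table, 1.73% held the Grainyhead motif, 4.14% the ETS motif, 3.07% the OVO motif and 20.6% the E-box. Capitals mark matches. The first EHF window (chr11:34624007-34624306, plus strand) and the second one held none of the 4 motifs, the ELF3 window (chr1:202010337-202010636, plus strand) held 1 E-box, and the first GRHL3 window (chr1:24319107-24319406, plus strand) held 2 E-boxes that do not overlap.
EHF: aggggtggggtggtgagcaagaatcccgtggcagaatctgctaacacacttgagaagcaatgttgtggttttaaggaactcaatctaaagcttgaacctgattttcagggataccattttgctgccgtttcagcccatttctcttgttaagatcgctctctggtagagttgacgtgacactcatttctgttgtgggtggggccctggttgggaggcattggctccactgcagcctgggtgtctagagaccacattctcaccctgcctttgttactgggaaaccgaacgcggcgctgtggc
ELF3: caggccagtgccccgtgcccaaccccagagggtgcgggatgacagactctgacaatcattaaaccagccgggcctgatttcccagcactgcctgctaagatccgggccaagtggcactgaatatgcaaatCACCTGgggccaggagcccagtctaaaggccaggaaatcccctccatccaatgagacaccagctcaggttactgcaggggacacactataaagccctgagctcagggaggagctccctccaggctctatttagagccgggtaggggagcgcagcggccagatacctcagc
GRHL3: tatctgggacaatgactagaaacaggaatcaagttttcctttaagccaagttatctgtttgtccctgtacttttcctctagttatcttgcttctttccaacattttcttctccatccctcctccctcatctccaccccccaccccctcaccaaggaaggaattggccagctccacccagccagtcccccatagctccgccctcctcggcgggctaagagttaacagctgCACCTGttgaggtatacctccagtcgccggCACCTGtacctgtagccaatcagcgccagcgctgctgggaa
The E-box of ELF3 began 120 bases before the start, and those of GRHL3 lay on either side of it, from base 230 and from base 260 of the window. The second GRHL3 window and the GRHL1 window held no match. A match is a stretch of letters and not a measured binding site.

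The Grainyhead-like genes form a family of 3, which bind the same motif. GRHL1 (ENSG00000134317) lies on chromosome 2 from 9951693 to 10002277 on the plus strand. GRHL1 stood at 5.29, 4.46, 3.74, 6.83 and 6.35 TPM in HCT116-WT and at 5.4, 3.37, 3.05, 3.91 and 5.11 TPM in HCT116-CD276KO. The groups overlapped, with 2 of the 5 HCT116-CD276KO libraries below the lowest HCT116-WT library. The means were 5.33 ± 1.28 and 4.17 ± 1.04 TPM (SD, n = 5; log2 fold change -0.29). GRHL2 (ENSG00000083307), the member best known as an activator of E-cadherin, lies on chromosome 8 from 101492439 to 101669726 on the plus strand. GRHL2 stood at 11.04, 9.77, 9.42, 8.68 and 8.72 TPM in HCT116-WT and at 3.86, 2.63, 6.39, 4.18 and 5.62 TPM in HCT116-CD276KO. All 5 HCT116-CD276KO libraries were below the HCT116-WT range, and they were more scattered, with a coefficient of variation of 32.8% against 10.1%. The means of 9.53 ± 0.965 and 4.54 ± 1.49 TPM (SD, n = 5) left 47.6% of the HCT116-WT level (log2 fold change -0.97).

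GRHL3 (ENSG00000158055), which is known from the differentiation of the epidermis, lies on chromosome 1 from 24199558 to 24364482 on the plus strand. GRHL3 stood at 1.2, 1.41, 1.21, 0.75 and 0.98 TPM in HCT116-WT and at 0.16, 0.21, 0.39, 0.51 and 0.62 TPM in HCT116-CD276KO. The groups did not overlap, but the highest HCT116-CD276KO and the lowest HCT116-WT library were only a little apart. The means were 1.11 ± 0.252 and 0.378 ± 0.195 TPM (SD, n = 5), which is 34.1% of the HCT116-WT level. At this low level the pseudocount matters: the log2 fold change was -0.62 on log2(TPM + 1), and the log2 ratio of the mean TPM was -1.55. The gene STPG1 overlaps GRHL3 on the opposite strand and stood at 7.27 and 5.38 TPM, above GRHL3 in both groups. The sum of the family was 16.0 ± 1.14 TPM in HCT116-WT and 9.08 ± 1.89 TPM in HCT116-CD276KO (SD, n = 5). GRHL2 made up 59.7 ± 5.51% of it in HCT116-WT and 49.3 ± 9.55% in HCT116-CD276KO (SD, n = 5), with overlapping ranges. In HCT116-CD276KO replicates 1 and 2 GRHL1 held the larger share of the family, and in replicate 3 GRHL2 held 65.0%.

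**Figure D2:**
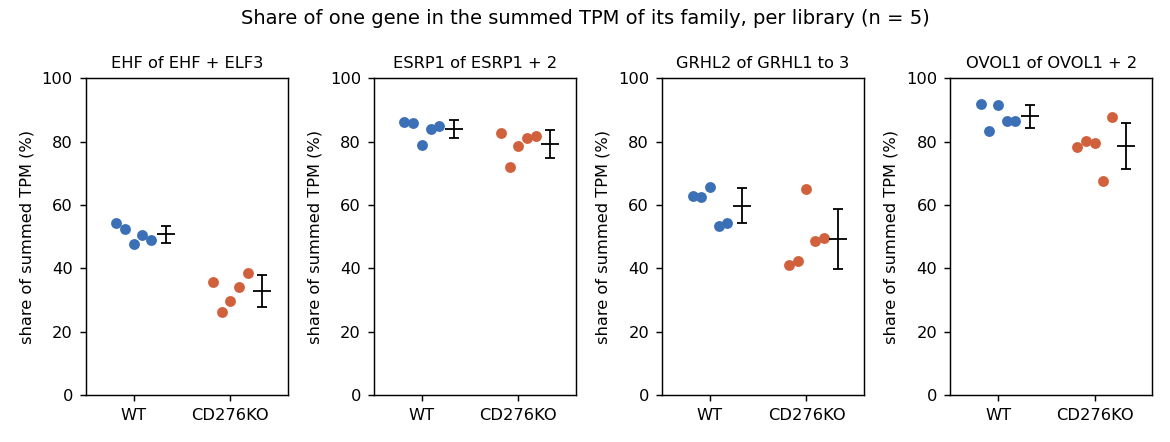
The vertical axes give the share of 1 gene in the summed TPM of its family (percent, 0 to 100) for each HCT116-WT library (blue) and each HCT116-CD276KO library (red), with mean and SD beside the points. The share of EHF in EHF plus ELF3 does not overlap between the groups, while the shares of ESRP1, GRHL2 and OVOL1 do.

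Of the epithelial splicing regulators, ESRP1 (ENSG00000104413) lies on chromosome 8 from 94641074 to 94707466 on the plus strand. ESRP1 stood at 132.53, 115.55, 86.94, 96.8 and 121.29 TPM in HCT116-WT and at 92.87, 51.81, 63.08, 81.26 and 85.82 TPM in HCT116-CD276KO. Of the HCT116-CD276KO libraries 4 were below the lowest HCT116-WT library, and replicate 1 lay within the HCT116-WT range. The means of 111 ± 18.5 and 75.0 ± 17.0 TPM (SD, n = 5) left 67.8% (log2 fold change -0.57). ESRP2 (ENSG00000103067) lies on chromosome 16 from 68229033 to 68238102 on the minus strand. ESRP2 stood at 21.08, 19.01, 23.19, 18.34 and 21.45 TPM in HCT116-WT and at 19.55, 20.12, 17.25, 18.73 and 18.92 TPM in HCT116-CD276KO. The groups overlapped almost fully, with 1 HCT116-CD276KO library below the HCT116-WT range. The means were 20.6 ± 1.96 and 18.9 ± 1.08 TPM (SD, n = 5), and the log2 fold change of -0.12 was close to the median of all genes and became 0.0029 after quantile normalization. The sum of both genes was 131 ± 18.4 TPM in HCT116-WT and 93.9 ± 17.1 TPM in HCT116-CD276KO (SD, n = 5). ESRP1 kept the larger part of it in every library, at 84.0 ± 2.97% and 79.3 ± 4.34% (SD, n = 5). NFATC3 overlaps ESRP2 on the opposite strand, at 14.5 and 12.4 TPM.

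Of the OVO-like repressors, OVOL1 (ENSG00000172818) lies on chromosome 11 from 65787063 to 65797214 on the plus strand. OVOL1 stood at 5.9, 4.61, 5.33, 5.01 and 5.75 TPM in HCT116-WT and at 3.95, 3.2, 2.7, 3.99 and 4.14 TPM in HCT116-CD276KO. The groups did not overlap, although the gap between them was small. The means of 5.32 ± 0.530 and 3.60 ± 0.620 TPM (SD, n = 5) left 67.6% (log2 fold change -0.47). OVOL2 (ENSG00000125850) lies on chromosome 20 from 17956979 to 18059188 on the minus strand. OVOL2 stood at 0.52, 0.91, 0.49, 0.78 and 0.89 TPM in HCT116-WT and at 1.1, 0.79, 0.69, 1.9 and 0.57 TPM in HCT116-CD276KO. The groups overlapped, and 2 HCT116-CD276KO libraries were above the HCT116-WT range. The means were 0.718 ± 0.201 and 1.01 ± 0.535 TPM (SD, n = 5) with a log2 fold change of 0.20, and of 0.06 without HCT116-CD276KO replicate 4, while the log2 ratio of the mean TPM was 0.49. OVOL2 overlaps SNX5 on the same strand, at 201 and 202 TPM, and MGME1 on the opposite strand, at 34.9 and 30.7 TPM, so that its low values are uncertain. OVOL1 made up 88.0 ± 3.62% and 78.7 ± 7.21% of the summed TPM of the pair (SD, n = 5).

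Long and short transcripts did not rank alike in all libraries. Deviations from the mean profile were correlated with transcript length over the genes within each library. The Spearman correlations were 0.43, 0.39, -0.09, 0.05 and 0.41 in HCT116-WT replicates 1 to 5. In those of HCT116-CD276KO they were 0.26, -0.52, -0.49, -0.07 and 0.32. The ranges of the groups overlapped, with the lowest values in HCT116-CD276KO. GC content showed such trends too. With these trends removed from each library the log2 fold changes were -1.39 for EHF, -0.78 for GRHL2, -0.44 for ESRP1, -0.40 for ELF3, -0.37 for OVOL1, -0.17 for GRHL1 and -0.003 for ESRP2. Each was nearer to 0 than with the TPM as deposited. With 1 library left out in turn and under the other scalings, 6 of these 7 genes kept a negative sign, while ESRP2 turned positive after quantile normalization.

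**Figure D3:**
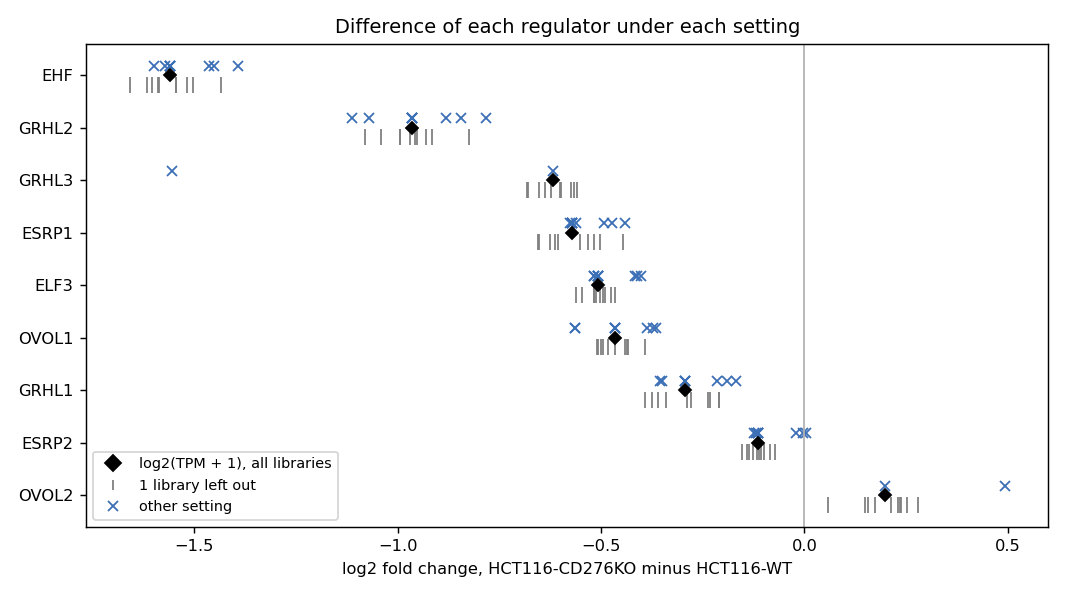
The horizontal axis gives the log2 fold change of each regulator (HCT116-CD276KO minus HCT116-WT) from all libraries (diamond), with 1 library left out (grey ticks) and under other scalings, pseudocounts and filters (blue crosses). EHF ranged from -1.66 to -1.39, GRHL2 from -1.11 to -0.78 and ESRP2 from -0.15 to 0.0029, and the crosses set apart for GRHL3 and OVOL2 are the log2 ratios of the mean TPM.

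Genes known to be bound or activated by GRHL2 were next examined, a list of 16 genes that were all tested. Of these 9 fell and none rose, beside 4.09% lower and 0.781% higher of all tested genes. The list was put together with results of these data known. Its median log2 fold change was -0.35 beside -0.09 over all genes. CDH1 and EPCAM are also among the epithelial markers above. CDH1, which encodes E-cadherin, fell from 42.7 ± 4.92 to 20.4 ± 5.73 TPM (SD, n = 5; log2 fold change -1.07, adjusted p = 0.00311, limma). The tight junction gene CLDN4 fell from 120 ± 12.6 to 70.6 ± 4.88 TPM (SD, n = 5; log2 fold change -0.76, adjusted p = 0.000154, limma). The membrane protease gene ST14 fell with a log2 fold change of -0.50. SFN, the highest of the list, fell from 284 ± 18.8 to 224 ± 11.1 TPM (SD, n = 5; adjusted p = 0.00775, limma), but did not pass after median-of-ratios scaling (adjusted p = 0.105, limma). PRSS8, RAB25 and EPCAM also passed, and these 3 and CLDN3 are named after their values were seen. PRSS8 did not pass after quantile normalization, and RAB25 and EPCAM passed under neither of those scalings. RAB25 lost its call without HCT116-WT replicate 1, 4 or 5 or HCT116-CD276KO replicate 4, with adjusted p-values from limma between 0.0544 and 0.0748. Among the fits with 1 library left out EPCAM kept its call only without HCT116-WT replicate 3 or HCT116-CD276KO replicate 5, with adjusted p-values from limma between 0.0533 and 0.0909 in the others. CLDN3 was the 1 gene of the list with a higher mean, at 12.6 and 13.2 TPM, and did not pass.

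The relatives of the regulators were examined in the same way. Of the CP2 branch of the Grainyhead family (TFCP2, TFCP2L1 and UBP1) none passed the limma test. Among these 3 genes 1 had an unadjusted p-value under 0.05, beside 2977 of all 13581 tested genes. UBP1, the highest, stood at 61.6 ± 5.39 and 54.6 ± 10.8 TPM (SD, n = 5). Of 25 other ETS factors 16 were tested, with a median log2 fold change of -0.11 beside -0.09 over all genes. Of the 16, 1 passed, beside 4.87% of all tested genes. This was ELK3, at 72.9 ± 7.27 and 53.8 ± 8.85 TPM (SD, n = 5; log2 fold change -0.44, adjusted p = 0.0468, limma). Its call was lost in 8 of the 10 fits with 1 library left out, all but those without HCT116-CD276KO replicate 1 or 5, with adjusted p-values from limma of 0.0574 to 0.126. ERF, an ETS repressor and the highest of that list, stood at 82.0 and 77.4 TPM and did not pass.

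For the splicing side, 19 other factors that act on ESRP-dependent exons and 20 genes that carry such exons were examined. Of the factors 18 were tested and 1 passed, beside 4.87% of all tested genes. This was RBM47, which fell from 10.6 ± 0.749 to 7.43 ± 1.01 TPM (SD, n = 5; log2 fold change -0.46, adjusted p = 0.0182, limma). Its call was lost without HCT116-WT replicate 1, 2 or 5 or HCT116-CD276KO replicate 4 (adjusted p = 0.0514 to 0.0562, limma). HNRNPA1, the highest of the factors, stood at 2568 and 2494 TPM, and its sign turned under median-of-ratios scaling. None of the 20 genes with ESRP exons passed the limma test, and 6 had an unadjusted p-value under 0.05, beside 2977 of all 13581 tested genes. The median log2 fold change of the 20 genes was -0.24 beside -0.09 over all genes. CD44, the highest of them, stood at 436 ± 34.1 and 343 ± 56.8 TPM (SD, n = 5; log2 fold change -0.36, adjusted p = 0.0906, limma). With the length and GC trend removed CD44 passed at a smaller log2 fold change of -0.18 (adjusted p = 0.0217, limma). Values per gene do not show which exons were used.

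A list of 18 genes was put together around mesenchymal factors that OVOL and GRHL proteins oppose, with signalling genes such as BMP4 and CTNNB1 in it. Of these 9 were tested, 1 rose and 1 fell, beside 0.781% higher and 4.09% lower of all tested genes. The median log2 fold change of the 9 was -0.01 beside -0.09 over all genes. VIM, which encodes the intermediate filament protein vimentin, rose from 4.22 ± 0.231 to 6.80 ± 0.254 TPM (SD, n = 5; log2 fold change 0.58, adjusted p = 0.000656, limma). BMP4, which encodes a secreted ligand and not a transcription factor, fell from 85.7 ± 4.87 to 60.4 ± 6.83 TPM (SD, n = 5; log2 fold change -0.50, adjusted p = 0.00432, limma). ZEB1, named like TWIST1 and SNAI2 after its values were seen, stood at 1.94 ± 0.122 and 2.43 ± 0.711 TPM (SD, n = 5), with overlapping groups (adjusted p = 0.388, limma). With the length and GC trend removed ZEB1 passed, at a log2 fold change of 0.37 (adjusted p = 0.0371, limma). TWIST1 and SNAI2, which were too low to be tested, went the other way without overlap of the groups, at 0.944 ± 0.157 and 0.394 ± 0.112 TPM and at 0.158 ± 0.0449 and 0.060 ± 0.0354 TPM (SD, n = 5). ZEB2 and CDH2 stayed at or under 0.15 TPM in every library. CTNNB1, the highest of the list, stood at 262 and 246 TPM. MIR200CHG, the host transcript of microRNAs that target ZEB1 and ZEB2, stood at 3.13 ± 1.34 and 3.23 ± 0.909 TPM (SD, n = 5) and did not pass.

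Of 22 other transcriptional regulators of epithelia, ID1, ID2 and ID3 among them, 15 were tested, 3 fell and 2 rose. Of all tested genes 4.09% were lower and 0.781% higher. The list had a median log2 fold change of -0.35 beside -0.09 over all genes. KLF4, a factor of differentiated gut epithelium, fell from 29.7 ± 1.47 to 11.2 ± 1.28 TPM (SD, n = 5; log2 fold change -1.34, adjusted p = 1.88e-06, limma). HNF4A, a nuclear receptor of the intestine and liver, fell from 3.51 ± 0.192 to 0.670 ± 0.120 TPM (SD, n = 5; log2 fold change -1.44, adjusted p = 3.92e-06, limma). SOX9, a factor of intestinal crypts, fell with a log2 fold change of -0.48 (adjusted p = 0.0095, limma). The 2 genes that rose encode inhibitors of helix-loop-helix factors, and these inhibitors bind no DNA themselves. ID2 rose from 59.5 ± 5.13 to 115 ± 6.02 TPM (SD, n = 5; log2 fold change 0.95, adjusted p = 8.59e-06, limma) and ID3 from 49.0 ± 6.82 to 70.6 ± 5.58 TPM (SD, n = 5; log2 fold change 0.52, adjusted p = 0.00834, limma). ID1, the highest of the list, stood at 261 and 301 TPM and passed only with the length and GC trend removed, among the settings tried.

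Over the 8 lists together, 98 of 124 genes were tested and 18 passed, 15 lower and 3 higher. This was 18.4% beside 4.87% of all tested genes, in lists put together with results of these data known. With the length and GC trend removed 27 passed, 19 lower and 8 higher, and all 18 were among them. Over all genes the split moved with the scaling, from 556 lower and 106 higher to 385 lower and 253 higher after quantile normalization. The share of the 2 directions in the lists kept within 10 percentage points under median-of-ratios scaling and quantile normalization.

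**Figure D4:**
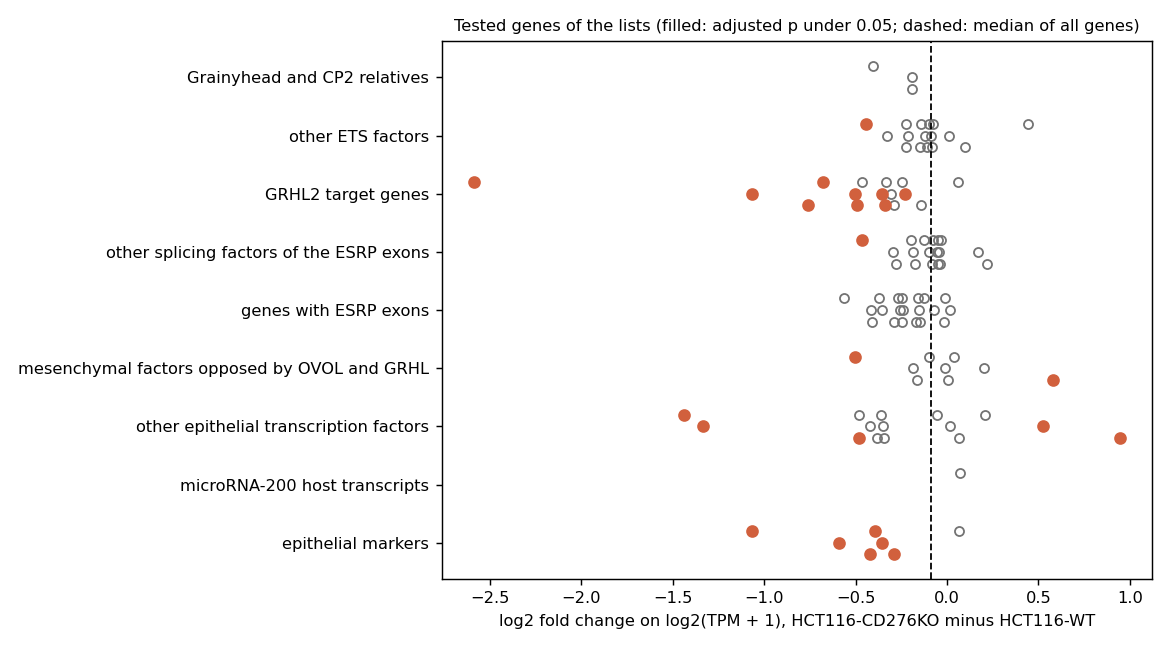
Each point is a tested gene of a list, placed by its log2 fold change on log2(TPM + 1) (horizontal axis, HCT116-CD276KO minus HCT116-WT) and filled where its adjusted p-value from limma was under 0.05, with the median of all genes at -0.09 as a dashed line. The GRHL2 target genes lie mostly to the left, with CDH1 at -1.07, and the filled points to the right of 0 are VIM, ID2 and ID3.

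Position had no part in the choice of the regulators, so the genes beside them were examined, 10 tested genes on each side, 180 in all. Of these 8 passed, all lower in HCT116-CD276KO cells, which was 4.44% beside 4.87% of all tested genes, and their median log2 fold change was -0.08. After quantile normalization 7 neighbours were lower and 4 higher, and with the length and GC trend removed 13 were lower and 12 higher. The sets were unlike in distance. The farthest neighbour lay 8648675 bases away for EHF and 6030370 for OVOL2, but 213121 for OVOL1. None of the 20 neighbours of GRHL2, ELF3, GRHL3 or OVOL1 passed the limma test, with 3, 5, 3 and 5 of them at an unadjusted p-value under 0.05. For EHF, ESRP2, GRHL1, OVOL2 and ESRP1 the counts at such a value were 7, 7, 6, 5 and 4 of 20. Of all 13581 tested genes 2977 had an unadjusted p-value under 0.05. The nearest tested neighbours of EHF, CAT and APIP, stood at 38.4 and 35.1 TPM and at 47.5 and 49.8 TPM, and CD59 was the 1 neighbour of EHF that passed (log2 fold change -0.26, adjusted p = 0.0132, limma), a call lost under median-of-ratios scaling (adjusted p = 0.131, limma), with the replicate block (0.0647) and with the length and GC trend removed, where its log2 fold change was -0.04 (0.842). Beside GRHL2, NACA4P stood at 2.29 and 2.79 TPM and RRM2B at 76.4 and 56.2 TPM. Beside ESRP1, INTS8, a subunit of the Integrator complex, fell from 103 ± 7.58 to 56.2 ± 8.30 TPM (SD, n = 5; log2 fold change -0.87, adjusted p = 0.000399, limma), 105845 bases away, while the nearer VIRMA and DPY19L4 did not pass.

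ESRP2, the member with almost equal groups, had the most neighbours that passed, 4 of 20, beside 4.87% of all tested genes. They were DUS2 and, on the other side, CDH3 and CDH1, which encode P-cadherin and E-cadherin, and the hyaluronan synthase gene HAS3. CDH1 is the same gene that was counted above among the epithelial markers and the GRHL2 target genes. HAS3 fell from 72.2 ± 5.51 to 18.7 ± 3.36 TPM (SD, n = 5; log2 fold change -1.91) at a distance of 867551 bases, and CDH3 from 136 ± 10.9 to 84.4 ± 14.1 TPM (SD, n = 5; log2 fold change -0.69) at 398087 bases. The nearest tested genes, PLA2G15 at 8.13 and 8.30 TPM and the non-coding ENSG00000262160 at 1.64 and 1.69 TPM, did not pass. The call of DUS2 (adjusted p = 0.0214, limma) was lost without HCT116-WT replicate 1, 2, 4 or 5 or HCT116-CD276KO replicate 4 (adjusted p = 0.0574 to 0.0706, limma). It was also lost under median-of-ratios scaling (0.0803), after quantile normalization (0.111) and with the replicate block (0.0527). The esterase gene IAH1, 455150 bases from GRHL1, fell from 29.6 ± 1.66 to 10.9 ± 1.48 TPM (SD, n = 5; log2 fold change -1.38). The ribosome-binding protein gene RRBP1, 274684 bases from OVOL2, fell from 53.5 ± 1.93 to 21.1 ± 4.99 TPM (SD, n = 5; log2 fold change -1.34). Other nearest neighbours were the non-coding ENSG00000269973 and KLF11 for GRHL1, RNPEP for ELF3, IFNLR1 and STPG1 for GRHL3, AP5B1 and CFL1 for OVOL1, and SNX5 and SNORD17 for OVOL2, none of which passed.

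**Figure D5:**
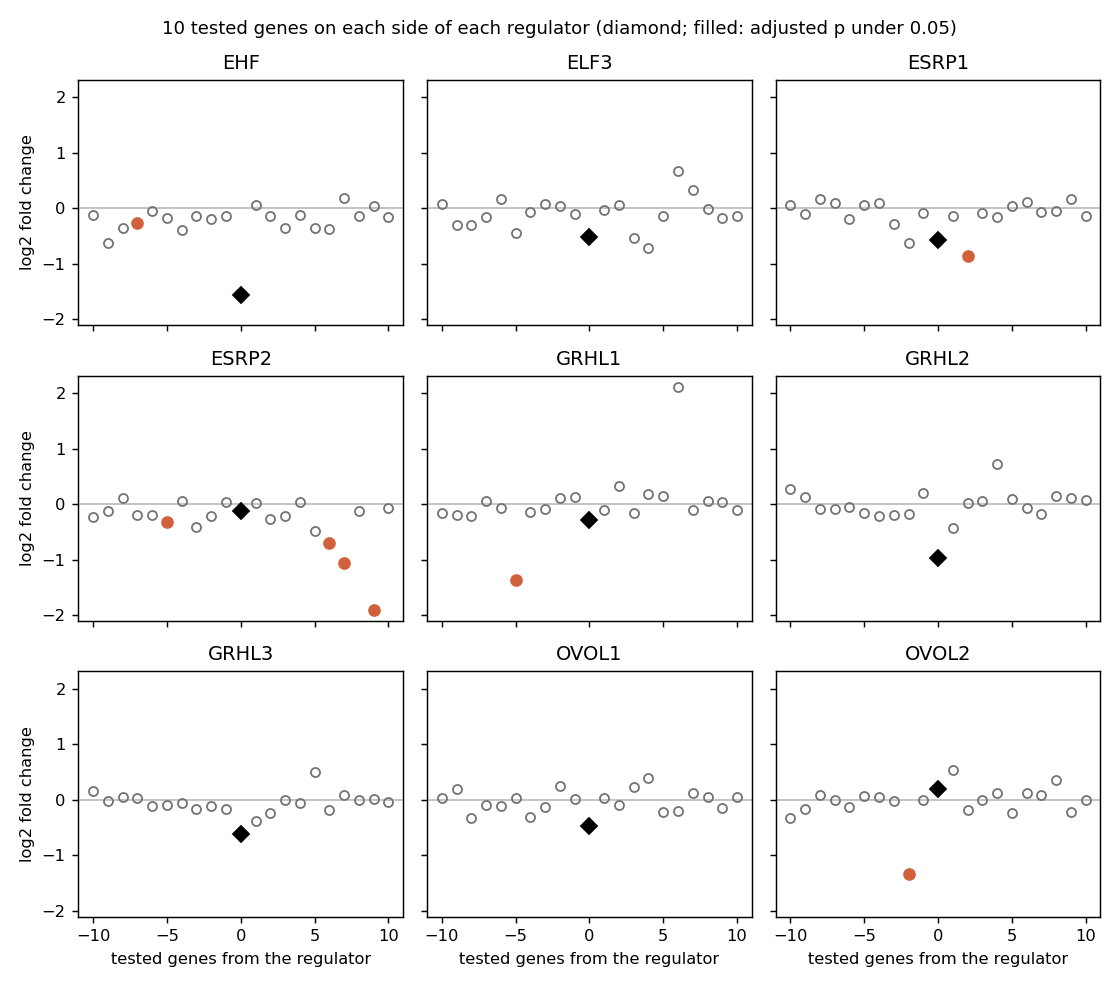
Each panel plots the log2 fold change on log2(TPM + 1) (vertical axis) of the 10 tested genes on each side of 1 regulator, in order of position (horizontal axis, in genes), with the regulator as a diamond at 0 and filled points where the adjusted p-value from limma was under 0.05. EHF and GRHL2 lie below all 20 of their neighbours, while ESRP2 lies above 4 filled points, HAS3 lowest at -1.91.

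The genes whose profiles over the 10 libraries were most like those of EHF and GRHL2 were sought by the root mean square difference of log2(TPM + 1), each taken from its HCT116-WT mean. For EHF these were EMP1, a membrane protein gene (0.129, from 216 ± 19.0 to 75.1 ± 11.4 TPM), the glutamate transporter gene SLC1A3 (0.182, from 14.8 ± 2.09 to 4.94 ± 0.878 TPM) and MACC1 (0.197, from 7.36 ± 0.874 to 2.36 ± 0.940 TPM; SD, n = 5 for each). For GRHL2 they were the calcium pump gene ATP2C2 (0.164, from 5.42 ± 0.455 to 2.69 ± 1.09 TPM), the serpin gene SERPINA5 (0.228, from 2.37 ± 0.327 to 0.776 ± 0.243 TPM) and the nuclear receptor gene PPARG (0.231, from 43.3 ± 3.35 to 20.7 ± 1.62 TPM; SD, n = 5 for each). As the measure takes in the difference between the groups, a similar fold change comes with it.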

How the data were processed

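RNA of 5 HCT116-WT and 5 HCT116-CD276KO cultures was analysed. According to the methods and the submitters' processing notes, the authors made directional libraries of polyadenylated RNA, mapped the reads to hg38/GRCh38 with STAR 2.5.2b and quantified an Ensembl annotation with RSEM 1.3.0 and featureCounts 1.5.1. The values used here are the TPM that the authors deposited for 58050 Ensembl identifiers. Which program gave the TPM, and the strand setting of the counting, are not given in the sources used here. TPM are scaled to 1 total per library and keep no depth.

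Symbols and positions came from GENCODE 44 (56947 identifiers matched). Genes averaging 1 TPM or more were tested with limma 3.58.1 in R 4.3.3 on log2(TPM + 1), with a variance trend and Benjamini-Hochberg adjustment over all 13581 genes. Fold changes on this scale understate those of low genes. The fit was also run on simulated data with independent noise per gene. These data held no trends with length or GC content, so that run cannot show how the fit behaves under them. The study used limma/voom on counts, which were not analysed here. The 9 genes, the gene lists and the tests were chosen with earlier results of these data known. Genes named were the 9 regulators and CD276, in each list every gene that passed, up to the 5 with the largest change, and the highest one, the nearest tested neighbours and those that passed, and the 3 nearest profiles to EHF and GRHL2. The values of some genes within this rule are not reported here. Promoter windows were read from RefSeq with Python 3.11.15 and pandas 2.3.3. Whether same-numbered cultures were paired is not stated, and the fit has no block. Deviations of same-numbered libraries from their group means correlated between -0.18 and 0.12, which shows no pairing but cannot exclude one. Alternatives were a pseudocount of 0.1, no filter, a filter of 5 TPM, median-of-ratios scaling, quantile normalization, removal of each library's trend with length and GC content (local regression, span 0.3, 13472 genes), a robust variance model, a replicate block, 5 or 20 neighbours on each side, ratios of mean TPM, and each library left out.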

Additional observations from a re-analysis of the deposited data

Results flagged for a closer look

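The 9 regulators, CD276 and the genes taken from the lists by the naming rule gave 64 groups of 5 values. Genes named after their values were seen, KLF5 among them, were left out. Of the 64 groups 3 held a library far from the other 4. Chance gives this for about 1 in 20 groups, which is 3.2 of 64. All 3 were HCT116-WT replicate 3. ERF stood at 105.4 TPM there, with the next library at 82.35 TPM. CLDN4 stood at 142.11 TPM, with the next library at 119.11 TPM. ID3 stood at 60.78 TPM, with the next library at 49.02 TPM. None of the 9 regulators had such a library. HCT116-WT replicate 3 was also the library whose deviations followed GC content most closely, with a Spearman correlation of 0.61 over genes. The part of this in the 3 values was not tested.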

How the results depend on the processing

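The 662 genes with an adjusted p-value under 0.05 became 1249 with the length and GC trend removed and 378 with a replicate block. The sources used here do not state whether same-numbered cultures were paired. Dropping single libraries gave a count between 343 (without HCT116-WT replicate 5) and 857 (without HCT116-CD276KO replicate 1). It was 345, 376 and 421 without HCT116-WT replicate 1, 2 or 4 and 407 and 375 without HCT116-CD276KO replicate 3 or 4. The 18 list genes became 14 to 23 with 1 library left out and 15 to 27 under the other settings, 16 with the replicate block, which lost the calls of RBM47 (adjusted p = 0.0531, limma), RAB25 and EPCAM. The 8 of 180 neighbours became 7 to 11 with 1 library left out, 25 with the length and GC trend removed and 6 with the block. With 5 genes on each side 4 of 90 passed, and with 20 on each side 22 of 355, 19 lower and 3 higher. Of all genes 662 of 13581 passed, and 1249 of 13472 with the length and GC trend removed. The cause of these shifts was not tested, except that 5 or 20 genes on each side test fewer or more genes. Some genes that did not pass changed sign: under median-of-ratios scaling ERF (0.022), HNRNPA1 (0.053) and VIRMA (0.021), after quantile normalization CFL1 (-0.053), and with the length and GC trend removed HNRNPA1 (0.083), CTNNB1 (0.028), KLF11 (0.028), VIRMA (0.11) and DPY19L4 (0.012), all as log2 fold changes. With 1 library left out the range was -0.13 to 0.018 for ERF, -0.10 to 0.22 for MIR200CHG, -0.025 to 0.13 for APIP, -0.030 to 0.072 for ENSG00000262160, -0.059 to 0.081 for PLA2G15, -0.034 to 0.065 for AP5B1, -0.016 to 0.069 for CFL1 and -0.026 to 0.029 for SNX5. TPM give no depth, so counting error could not be set beside the values of GRHL3 and OVOL2.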

Other observations

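KLF5, a factor of proliferating gut epithelium and a gene of the list of other transcriptional regulators of epithelia, was widely scattered between libraries. It is named after its values were seen. It ranged from 30.63 to 149.83 TPM in HCT116-WT and from 24.47 to 72.66 TPM in HCT116-CD276KO libraries, with means of 66.8 ± 49.0 and 46.9 ± 20.1 TPM (SD, n = 5), and did not pass the limma test.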
